A study of Mus musculus with 2 samples.

Results

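Of 2018 autosomal Lef1 peaks in mouse CD4+ T cells, 432 had at least 1 base within 1 kb of an annotated start or end coordinate of a protein-coding gene. They are called gene-end peaks here, and that distance alone chose them out of a deposited list of 2052 peaks. They made up 21.4% of the autosomal peaks (95% exact Clopper-Pearson interval 19.6 to 23.3%, for counting error only) and covered 49884 bp. The data come from chromatin immunoprecipitation followed by sequencing (ChIP-seq), in which DNA bound to a protein is pulled down with an antibody, here C18A7 against Lef1. One library was made from conventional CD4+ T cells (TCRb+, CD25-, GFP-) of the spleen of wild-type C57BL/6 mice aged 8 to 10 weeks. The other was made with the same antibody from TCRb+ CD4+ T cells of CD4-Cre+ Lef1 fl/fl mice on C57BL/6, whose floxed Lef1 gene is deleted by a recombinase under Cd4 control, and it served as the control against which peaks were called. CD4-Cre acts in thymocytes, so these cells developed without Lef1 from that stage on. Both libraries carry the label of naive CD4 T cells, but the CD25 and GFP gates and the age are given for the wild type only. Each kind of cell gave 1 library, the number of mice behind it is not given in the sources used here, and no comparison between samples can be tested. A peak list measures no expression, so it cannot check the labelled cell type.

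Lef1 belongs to the TCF/LEF family of transcription factors. Its HMG box binds short DNA words built on CTTTG and bends the DNA. It activates genes together with β-catenin and represses them together with Groucho/TLE corepressors. In the T lineage it acts with its relative Tcf1 from thymocyte development onwards. Such factors are known for acting at distal enhancers as well as at promoters, the stretches around the start of a gene where RNA polymerase assembles.

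Sequences under high-scoring gene-end peaks are shown first, because they let the binding word be read next to its score. Each deposited score is a −log10 p-value from peak calling, so a larger score stands for a less likely excess of wild-type reads over the control. Sequences came from the RefSeq promoter table of GRCm38.p6 (mm10), which holds windows of 250 bases before and 50 bases after annotated start sites. Each line gives the part of a peak that such a window covers outside protein-coding gene bodies, from 5′ to 3′ along the strand of the gene. Capitals mark what are here called TCF/LEF words, searched on either strand: the letters CTTTGAA, the letters CTTTGAT, the letters CTTTGTT and the letters CTTTGTA. These 7 peaks scored above 6 and hold such a word there.
1190007I07Rik (chr10:82623244-82623435, minus strand): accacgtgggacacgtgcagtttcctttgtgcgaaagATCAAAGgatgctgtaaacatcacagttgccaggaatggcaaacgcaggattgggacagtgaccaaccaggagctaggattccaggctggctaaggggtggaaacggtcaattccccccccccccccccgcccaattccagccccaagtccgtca
Tpra1 (chr6:88902001-88902250, plus strand): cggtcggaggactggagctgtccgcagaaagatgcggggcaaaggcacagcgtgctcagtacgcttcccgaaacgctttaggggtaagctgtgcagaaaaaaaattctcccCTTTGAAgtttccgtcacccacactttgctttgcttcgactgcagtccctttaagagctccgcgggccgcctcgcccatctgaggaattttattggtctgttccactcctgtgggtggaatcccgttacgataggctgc
Proser3 and Hspb6 (chr7:30552394-30552534, minus strand): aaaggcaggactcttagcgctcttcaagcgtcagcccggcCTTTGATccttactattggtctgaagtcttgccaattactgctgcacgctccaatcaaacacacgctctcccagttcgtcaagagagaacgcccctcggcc
Ajm1 (chr2:25580100-25580349, minus strand): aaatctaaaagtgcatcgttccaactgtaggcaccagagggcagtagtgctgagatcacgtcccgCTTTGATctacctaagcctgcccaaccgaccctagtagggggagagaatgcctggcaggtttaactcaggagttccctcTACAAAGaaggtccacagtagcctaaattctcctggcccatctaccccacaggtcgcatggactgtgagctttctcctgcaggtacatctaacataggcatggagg
Cacybp (chr1:160212904-160213084, minus strand): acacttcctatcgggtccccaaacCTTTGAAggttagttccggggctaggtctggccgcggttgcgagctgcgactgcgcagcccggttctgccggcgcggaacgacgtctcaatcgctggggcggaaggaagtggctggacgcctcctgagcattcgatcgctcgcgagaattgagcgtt
Ywhaq (chr12:21417452-21417686, minus strand): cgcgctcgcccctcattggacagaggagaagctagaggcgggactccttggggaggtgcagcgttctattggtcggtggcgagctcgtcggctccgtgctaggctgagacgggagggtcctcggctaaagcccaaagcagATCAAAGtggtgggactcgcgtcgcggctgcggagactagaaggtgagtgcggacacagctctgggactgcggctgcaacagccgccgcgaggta
Snrpe (chr1:133610339-133610530, minus strand): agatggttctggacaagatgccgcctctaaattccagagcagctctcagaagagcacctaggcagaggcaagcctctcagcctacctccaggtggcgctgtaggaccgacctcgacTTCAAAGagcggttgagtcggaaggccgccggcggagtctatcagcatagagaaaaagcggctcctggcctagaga

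In Ajm1 the stretch holds 2 of these words, and in the other 6 lines it holds 1. The words lie 106 to 189 bases before the annotated start whose window was read, at 168 bases in Cacybp and 139 in Tpra1. The 3 highest-scoring peaks with such a stretch but no TCF/LEF word in it are shown for contrast. They scored 9.08 (Ccdc146 and Fam185a), 8.26 (Sc5d) and 7.18 (Nr1d1, the REV-ERBα gene of the circadian clock), so high scores occurred without a word as well. Their GC contents are 50.9%, 64.7% and 47.6%. A word is a match of letters and not a shown binding site, and its absence says only that these letters are not in these stretches.
Ccdc146 and Fam185a (chr5:21424698-21424860, plus strand): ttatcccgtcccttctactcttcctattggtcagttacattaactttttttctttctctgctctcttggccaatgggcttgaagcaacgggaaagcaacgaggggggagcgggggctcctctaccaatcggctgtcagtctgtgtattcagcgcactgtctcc
Sc5d (chr9:42264415-42264550, minus strand): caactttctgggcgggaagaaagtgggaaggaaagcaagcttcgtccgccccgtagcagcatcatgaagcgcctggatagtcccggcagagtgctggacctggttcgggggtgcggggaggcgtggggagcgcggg
Nr1d1 (chr11:98775421-98775504, minus strand): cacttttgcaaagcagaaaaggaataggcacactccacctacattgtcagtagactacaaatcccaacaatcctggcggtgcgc

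Nearly all gene-end peaks whose direction could be read lay at the start of a gene and not at its 3′ end. Strand came from the promoter table, which gave it for 387 of the 471 genes with a gene-end peak (82.2%) and for 79.6% of all genes. For 349 peaks the strand of every gene in reach was known. Of these, 312 lay near starts only (89.4%, 85.7 to 92.4%), 26 near 3′ ends only (7.45%, 4.92 to 10.7%) and 11 near both. Sequence within 1 kb of a start and within 1 kb of a 3′ end is about equally long, at 31239454 and 31513609 bp. The share at starts moved with the reach, to 93.1% within 500 bp and 79.3% within 2.5 kb. The interval of a share treats peaks as independent, although neighbours are not.

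Peak centres were gathered at the start site itself. For the 334 peaks near a start, the distance of the centre from the nearest start had a median of 3 bp and quartiles of -148.5 and 213 bp, with negative values before the start. Centres within 200 bp of the start numbered 187, or 56.0% (50.5 to 61.4%). They lay before the start in 165 cases (49.4%, 43.9 to 54.9%). Around the 39 nearest 3′ ends, 7 centres lay within 200 bp (17.9%, 7.54 to 33.5%), and the histogram of distances shows no gathering there.

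**Figure D1:**
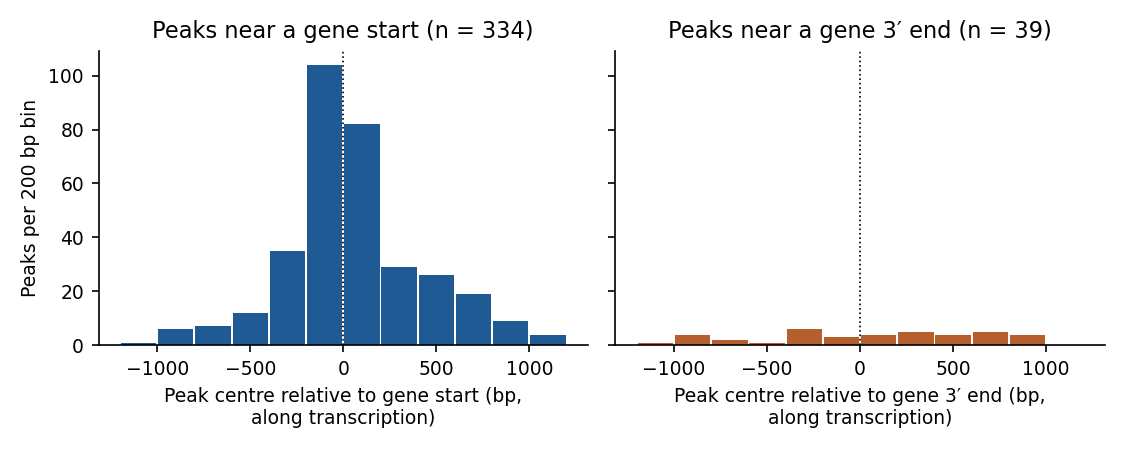
Number of gene-end peaks in 200 bp bins of the distance from the peak centre to the nearest gene start (left, 334 peaks) or 3′ end (right, 39 peaks), counted along the direction of transcription with negative values before the site. The bins from -200 to 0 and 0 to 200 bp hold 104 and 82 peaks at starts, and no bin holds more than 6 at 3′ ends.

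The distance rule cuts through a tail, not a gap. Peaks that cover a gene end numbered 75 (17.4%), and 123 more lay 1 to 100 bp away, while 32 lay in the last 250 bp inside the limit and 28 in the first 250 bp outside it. Just inside the limit were peaks at Sspn (989 bp, score 9.09), Inafm2 (996 bp, 4.08) and Adgre5 (999 bp, 4.65). Just outside were peaks at Eif4a1 (1022 bp, 6.01), Tha1 (1048 bp, 8.00) and Bub1b (1061 bp, 7.003).

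The highest score among gene-end peaks was 11.3, at the start of 1190007I07Rik, a gene named only after its clone (chromosome 10, 82623244 to 82623435). Coq2, an enzyme of coenzyme Q synthesis, followed with 10.8 in a peak that lay 689 bp from the gene, on its upstream side (chromosome 5, 100674977 to 100675231). Srrm1, a splicing coactivator, had a peak of 10.2 that was only 93 bp wide (chromosome 4, 135353419 to 135353511). At Tpra1 a peak of 466 bp and score 9.55 covered the start (chromosome 6, 88901851 to 88902316). These stand well below the highest score among the other autosomal peaks, 20.9.

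Sspn, which encodes sarcospan of the dystrophin complex, had a peak of 9.09 that lay 989 bp inside the gene (chromosome 6, 145932862 to 145933021). A peak of 8.91 covered an end of Vps11, a subunit of the tethering complexes of endosomes and lysosomes (chromosome 9, 44361597 to 44361811). Ajm1, an apical junction protein gene, had 8.87 over 416 bp across its start (chromosome 2, 25580016 to 25580431). Eif4g2, a translation initiation factor gene, and Sc5d, an enzyme of cholesterol synthesis, both had a peak of 8.26 (chromosome 7, 111082922 to 111083026, and chromosome 9, 42264415 to 42264660). The predicted gene Gm32584 had peaks of 8.26 at its start and at its 3′ end, 30285 bp apart (chromosome 5, 36661041 to 36661184 and 36630551 to 36630755). None of these leading genes is in the T cell lists described below, which hold only 219 of the 20665 autosomal protein-coding genes.

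Peaks at 3′ ends only were led by that of Gm32584. Next came Vamp1, a vesicle fusion protein gene, with 7.57 over 56 bp (chromosome 6, 125222316 to 125222371). Tmem253 followed with 7.18 (chromosome 14, 52019746 to 52019855), but this peak also overlaps the promoter window of a start of Zfp219, whose annotated gene end lies farther off. Tcf25 had 6.95 (chromosome 8, 123404675 to 123404855) and Bclaf1, a nuclear RNA-binding factor gene, 5.44 (chromosome 10, 20342801 to 20342931).

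Most gene-end peaks reached 1 gene, and 70 reached the ends of 2 or more. The shared peaks made up 16.2% (12.9 to 20.02%). Among the sequence within 1 kb of a gene end, 7.59% lies within reach of ends of 2 or more genes. At starts alone, 42 of the 334 peaks near a start reached starts of 2 or more genes (12.6%, 9.22 to 16.6%), where 5.35% of the sequence does. The share was 21.6% within 2.5 kb and 26.5% when ends of all annotated genes counted, definitions that put more ends in reach. The share of sequence was not computed for these. A wide peak reaches more ends than a point does, and paired genes sit close, so these shares are a description.

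Head-to-head gene pairs were the commonest arrangement of shared peaks. In 28 of the 70 the starts of both genes were in reach and the genes are transcribed away from each other, with a median of 144 bp between the starts. In 12 the genes are on opposite strands and overlap at their starts. In 2 peaks starts in the same direction were in reach, in 9 a start of 1 gene and a 3′ end of another, and in 1 only 3′ ends. For the other 18 a strand was not used here. Proser3 and Hspb6, a small heat shock protein gene, had the highest score, 9.22, with starts 142 bp apart under a peak of 301 bp (chromosome 7, 30552307 to 30552607).

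Xpo5, which exports microRNA precursors from the nucleus, shared a peak of 8.55 with Polh, a DNA polymerase that copies past damage (chromosome 17, 46203025 to 46203173). The peak shared by the histone genes H2ac20 and H2bc21 scored 8.41 (chromosome 3, 96221463 to 96221649). Ccdc146 and Fam185a shared one of 9.08 over 422 bp (chromosome 5, 21424698 to 21425119). Nosip and Prrg2 shared 6.95 (chromosome 7, 45062197 to 45062340), and Tut1 and the elongation factor gene Eef1g 6.53 (chromosome 19, 8967132 to 8967206). Anxa5 and 1810062G17Rik, whose starts are 50 bp apart, shared 5.99 (chromosome 3, 36476168 to 36476269).

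Shared and one-ended peaks had similar widths and scores. The median width was 92.5 bp (95% interval of the median 84 to 102) for shared peaks and 89 bp (81 to 96) for the 362 with 1 gene. Scores above the median of the whole list (4.40) were held by 31 shared peaks (44.3%, 32.4 to 56.7%) and 129 of the others (35.6%, 30.7 to 40.8%), so the intervals overlap.

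**Figure D2:**
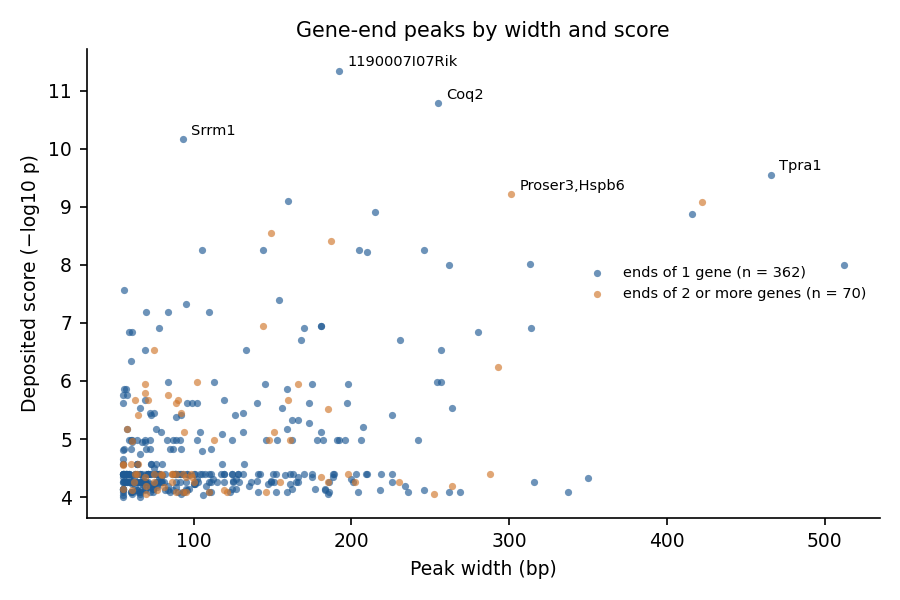
Deposited score (−log10 p) against width in bp for the 432 gene-end peaks, 1 point a peak, coloured by whether ends of 1 gene (362) or of 2 or more genes (70) were within 1 kb. Most points lie near a score of 4.40 at widths under 150 bp, both kinds are found over the range of scores, and the 5 highest scores are named.

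A gene seldom had more than 1 gene-end peak. The 432 peaks marked 471 genes, of which 439 had 1 peak, 32 had 2 and 0 had more. In 28 of the 32 genes both peaks lay at the same end, with a median of 106.5 bp between them (57 to 922 bp), and merging peaks within 1 kb left 406 sites. The widest spacing was at Tcf7, the gene of Tcf1. Its start on chromosome 11 at 52283383 lay under a peak of 4.40 (52283322 to 52283412), and a peak of 5.53 was centred at -1029 bp from that start (52284335 to 52284490).

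Other genes with a pair of peaks at 1 end included Srrm1 (10.2 and 4.08, 68 bp apart), Ncl, the nucleolin gene (4.14 and 6.54, 60 bp apart), and Slc7a5, a transporter of large amino acids (5.86 and 4.08, 61 bp apart). Whether such neighbours are parts of a single site was not tested. Peaks at both ends were found at 4 genes. Besides Gm32584 these were Prrg2 (4.40 and 6.95), the helicase gene Ddx20 (4.40 and 4.99) and Tut1, a terminal uridylyl transferase gene (4.06 and 6.53).

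Sequence around the marked starts was rich in CpG. Gene-end peaks overlapped 227 of 20085 autosomal RefSeq promoter windows, and 198 of the 432 peaks (45.8%) did so. The overlapped windows held a median of 25 CpG dinucleotides in 300 bases (quartiles 19 and 32), against 14 (4 and 25) in all windows, and their median GC content was 63.7% against 57.0%. Grouped by CpG count, 3 of 5526 windows with 0 to 4 CpG were overlapped (0.0543%, 0.0112 to 0.159%). With 5 to 14 CpG the share was 0.551%, with 15 to 25 it was 1.78%, and with 26 to 67 it was 2.31% (1.90 to 2.78%). CpG-rich promoters are as a rule those of broadly expressed genes.

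TCF/LEF words were more frequent in windows under higher scores. They were found in 53 of the 227 overlapped windows (23.3%, 18.0 to 29.4%) and in 14.5% of all 20085 windows. Taken singly, CTTTGAA was in 9.69% of overlapped windows against 4.45% of all, and CTTTGAT in 10.1% against 3.26%. Pooled over scores, the other words showed no such excess over all windows, with CTTTGTT in 3.52% against 4.89% and CTTTGTA in 3.08% against 3.13%. All windows with at least 25 CpG held them in 2.09% and 0.986%. From scores of at most 4.40 to higher ones, CTTTGTT went from 2.24% to 5.38% and CTTTGTA from 1.49% to 5.38%, with intervals that overlap. Where the peak scored at most 4.40, 17 of 134 windows held a TCF/LEF word (12.7%, 7.57 to 19.5%), and above 4.40 it was 36 of 93 (38.7%, 28.8 to 49.4%). Split further at a score of 6, a bound chosen after these values were seen, words were in 34.8% of 69 windows and in 12 of 24 (29.1 to 70.9%). CpG-rich windows hold such words less often. Among windows with at least 25 CpG the share was 5.47% over all 5170, 9.23% (3.46 to 19.0%) of 65 with a peak of at most 4.40, and 13 of 52 (14.0 to 38.9%) with a higher one. The intervals for lower and higher scores overlap in these CpG-rich windows.

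Within the peaks themselves the count ran the same way. As far as windows covered them, 10 of 118 peaks scoring at most 4.40 held a TCF/LEF word (8.47%, 4.14 to 15.0%) and 19 of 80 higher ones (23.8%, 14.9 to 34.6%), with medians of 86.5 and 84 bases read. Above a score of 6 it was 8 of 21 (38.1%, 18.1 to 61.6%), with a median of 170 bases read, so that length moves with this last share and its part was not tested. The eighth was Elk4, an ETS factor gene, where a peak of 8.23 lay inside the gene body at a further annotated start (chromosome 1, 132008182 to 132008391). Some peaks overlap several windows, which share bases, so intervals over windows are too narrow.

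Over all overlapped windows, other words differed less between lower and higher scores, with intervals that overlap. The ETS word CCGGAAGT was in 10.6% of overlapped windows (6.89 to 15.3%) against 5.28% of all, and 8.18% of all windows with at least 25 CpG lies within that interval. It was at 8.21% (4.17 to 14.2%) for scores of at most 4.40 and 14.0% (7.66 to 22.7%) above. In overlapped windows with at least 25 CpG the ETS word rose with score too. It was in 5 of 65 (7.69%, 2.54 to 17.0%) at lower scores and 9 of 52 (17.3%, 8.23 to 30.3%) at higher ones. The GC box GGGCGGG was in 59.9% against 34.5% of all, at 61.9% and 57.0% in the lower and higher scores. In windows with at least 25 CpG the GC box was in 66.7% overall. CCAAT was in 37.4% against 38.1%, and the RUNX word TGTGGTT in 3.52% (1.53 to 6.83%) against 4.77%. For all windows with at least 25 CpG these shares were lower, 30.8% for CCAAT and 1.70% for the RUNX word. Each word was searched on both strands, and matches of different words can share bases.

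**Figure D3:**
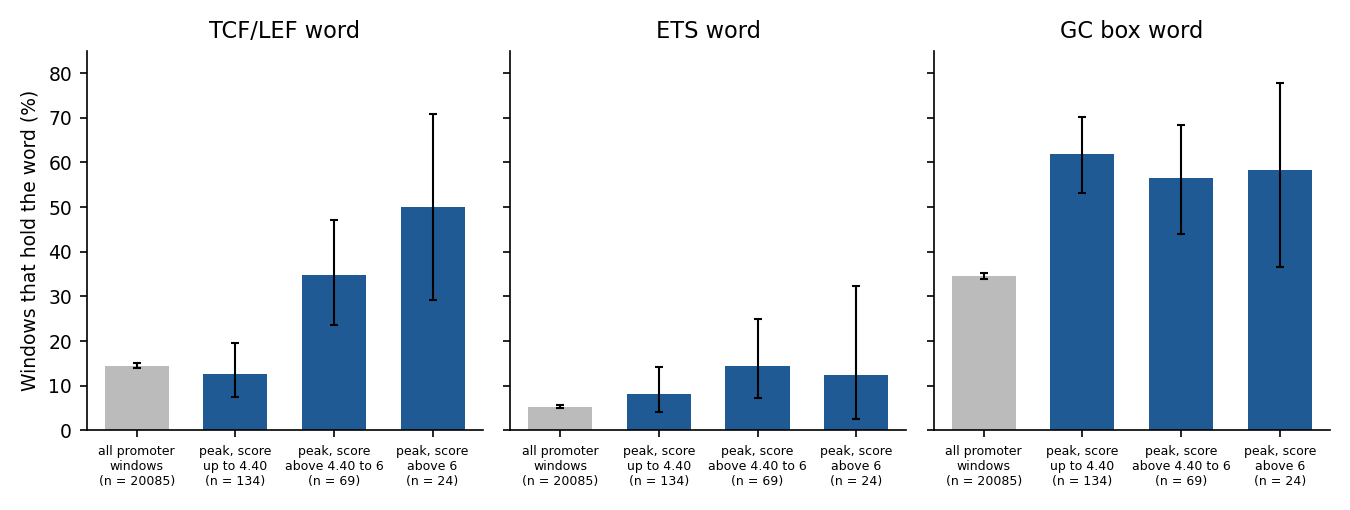
Percent of 300-base RefSeq promoter windows that hold a TCF/LEF word, the ETS word or the GC box, for all windows (grey) and for windows under gene-end peaks by deposited score (blue), with 95% exact intervals for counting error. The TCF/LEF bars go from 12.7% at scores up to 4.40 to 34.8% and 12 of 24, while the GC box bars under peaks stay between 56.5% and 61.9%.

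The median width of gene-end peaks was above that of other autosomal peaks at the most common score, while in the classes below and above it the intervals of the medians overlap. Over all scores their median width was 89.5 bp (84 to 95, range 55 to 512) against 76 bp (75 to 79, range 55 to 1141) for the other 1586. At the most common score, 4.40, the medians were 86 bp (76 to 93, 93 peaks) and 69 bp (68 to 71, 719 peaks). Below it they were 86 bp (77 to 95) and 74 bp (70 to 79), and above it 102 bp (89 to 124) and 123 bp (112 to 137). At scores of at least 8 they were 210 bp (160 to 301, 17 peaks) and 218.5 bp (201 to 302, 70 peaks). Widths of at least 200 bp were found in 15.0% (9.85 to 21.5%) of gene-end peaks above 4.40 and in 29.0% (24.8 to 33.4%) of the others, but at scores of at least 8 in 58.8% (32.9 to 81.6%) and 62.9% (50.5 to 74.1%). These differences were not tested, since peaks of 1 library are no replicates.

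The spread of scores differed as well. Scores below 4.40 made up 41.4% of gene-end peaks (36.7 to 46.2%) and 26.2% of the others (24.0 to 28.4%). The score of 4.40 itself was held by 21.5% (17.7 to 25.7%) and 45.3% (42.9 to 47.8%). Scores above it were held by 37.0% (32.5 to 41.8%) and 28.5% (26.3 to 30.8%). A score of at least 8 was reached by 17 gene-end peaks (3.94%, 2.31 to 6.23%) and 70 others (4.41%, 3.46 to 5.54%).

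**Figure D4:**
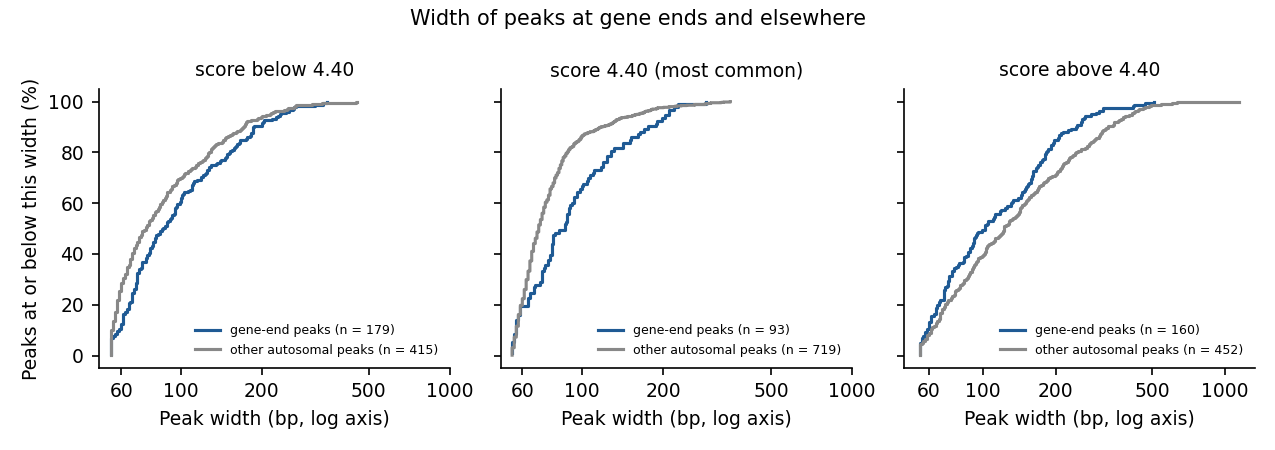
Cumulative percent of peaks against width in bp on a log axis, for gene-end peaks (blue) and other autosomal peaks (grey), in 3 classes of deposited score. The blue curve lies to the right of the grey one below and at a score of 4.40, where the medians are 86 against 74 bp and 86 against 69 bp, and to the left above it, with 102 against 123 bp.

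Among the widest gene-end peaks were some with scores near the lower limit of the list. The widest, 512 bp with a score of 8.00, lay inside Tnfrsf19, a receptor gene of the TNF family, near its start (chromosome 14, 61046198 to 61046709). After Tpra1, Fam185a and Ajm1 came Slc25a28, a mitochondrial iron carrier gene, with 350 bp and 4.33 (chromosome 19, 43674820 to 43675169). Fh1, the fumarase gene of the citric acid cycle, had 337 bp and 4.08 (chromosome 1, 175625630 to 175625966). Oxsr1, a stress-responsive kinase gene, had 316 bp and 4.25 (chromosome 9, 119322615 to 119322930), and Ywhaq, a 14-3-3 protein gene, 314 bp and 6.91. All of these but Tnfrsf19 and Ywhaq cover the annotated start of a gene.

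Genes of the T cell lists were few among the 471 marked genes, as the lists are short. Their share with a gene-end peak was above that of all genes, in lists written with earlier results of these data known. Of the 20665 autosomal protein-coding genes 2.28% had a gene-end peak, or 2.45% without the chemosensory receptor genes, of which 0 had one. Of 219 genes in 9 T cell lists, 13 had one (5.94%, 3.20 to 9.94%), and of 105 genes in 6 lists of other lineages 1 had (0.952%, 0.0241 to 5.19%). Promoter makeup moved with the share marked. Among the 16457 genes with a promoter window, those whose richest window held more than 14 CpG were called CpG-rich. Of the CpG-rich genes 3.82% had a gene-end peak (3.42 to 4.25%), and among the rest 0.789% (0.607 to 1.01%). A window was given for 165 of the 219 T cell genes and 79 of the 105 other-lineage genes. CpG-rich genes made up 61.8% and 17.7% of these. In the T cell lists 5 of 102 CpG-rich genes were marked (4.90%, 1.61 to 11.1%) and 3 of 63 others (4.76%, 0.993 to 13.3%). The 3.82% of all CpG-rich genes lies within the first interval, while 0.789% lies below the second. The peaks of those 3 others all scored at most 4.40. In the other-lineage lists 0 of 14 and 1 of 65 were marked. These counts are small, and 5 of the 13 marked T cell genes have no window. The part of CpG in the difference between the lists was not tested. The count of T cell genes went to 24 within 2.5 kb and to 5 with scores above 4.40 alone. Under the same settings the count of all marked genes went from 471 to 649 and to 186.

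Of the 13 T cell genes, 7 had the peak at the start, 1 at the 3′ end, and for 5 the strand was not used here. The list of TCF/LEF partner and Wnt target genes, which was counted among the T cell lists, had 3 of 31. Znrf3, whose product is a membrane E3 enzyme that clears Wnt receptors, had the highest score, 5.98, over 257 bp across an end (chromosome 11, 5444838 to 5445094). Tcf7 is given above, and Csnk1a1, a kinase that marks β-catenin for degradation, had 4.40 (chromosome 18, 61554745 to 61554868).

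Transcription factors of the T lineage had 3 of 29. Cbfb, the partner of Runx proteins, had a peak of 4.40 across its start (chromosome 8, 105170660 to 105170801). Elf1, an ETS factor gene, had 4.25 in a peak shared with Wbp4 (chromosome 14, 79481337 to 79481521). Bcl11b, needed for T cell commitment, had 4.23, 548 bp inside the gene (chromosome 12, 108003548 to 108003647). Among naive and quiescent T cell genes, 2 of 25 were marked, Tcf7 and the chromatin organiser gene Satb1, with 4.83 centred 97 bp inside its start (chromosome 17, 51833150 to 51833236).

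Brakes on T cell receptor signalling had 3 of 25. Pag1, an adaptor that recruits the kinase Csk, had 4.58 (chromosome 3, 9833496 to 9833559). Ctla4, an inhibitory receptor gene also in the follicular helper and regulatory list (1 of 22), had 4.20 over 63 bp across its start (chromosome 1, 60908965 to 60909027). Ptpn2, a phosphatase of cytokine signalling, had 4.11, 956 bp from an end (chromosome 18, 67725588 to 67725642). Receptor signalling itself had 1 of 30, the Tec-family kinase gene Txk, with 4.20 over 234 bp (chromosome 5, 72752783 to 72753016).

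Rap1a, a GTPase that switches on integrins, was the 1 of 25 homing genes, with 5.63 (chromosome 3, 105801350 to 105801489). Bach1 was the 1 of 25 in the NFAT, NF-kappaB and AP-1 list, with 4.40 beyond its 3′ end (chromosome 16, 87733628 to 87733684). Cytokine receptor and STAT genes had 0 of 28 (up to 12.3%). In the lists of other lineages the 1 gene was Ccr2, a chemokine receptor gene of monocytes, with 4.40 centred at -887 bp from its start (chromosome 9, 124100996 to 124101066).

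Genes of RNA processing and translation had shares above that of all genes. Splicing and RNA-binding protein genes had 11 of 166 (6.63%, 3.35 to 11.5%), and 10 of their 131 CpG-rich members were marked (7.63%, 3.72 to 13.6%). The 3.82% of all CpG-rich genes lies within this last interval, and 92.9% of the list's members with a window were CpG-rich. They were led by Prpf38b (6.70) and Snrpe (6.54), both of the spliceosome, Dhx38 (5.95) and the SR protein gene Srsf7 (5.68). Translation factor genes had 6 of 68 (8.82%, 3.31 to 18.2%), with Eif4g2 (8.26), Eef1g (6.53), Eif1a (5.44) and Eif3i (4.34) among them. The 6 include the gene of an elongation factor methyltransferase, which is not itself such a factor. A split by CpG is void there, since 52 of the 68 have a window and 5 of the 6 marked genes have none. Both intervals for the whole lists lie above 2.28%, which is a description of lists written with earlier results of these data known.

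Cytosolic ribosomal protein genes had 5 of 80 (6.25%, 2.06 to 14.0%), among them Rpl27 (5.75), Rpl18 (4.99), Rps3a1 (4.99) and Rps6 (4.83). Mitochondrial ribosomal protein genes had 5 of 78 (6.41%, 2.11 to 14.3%), at scores of 4.08 to 4.40, among them Mrpl15 and Mrps22. Aminoacyl-tRNA synthetase genes had 2 of 35, among them Gars (5.27). These intervals reach below 2.28%. Proteasome genes had 0 of 50 (up to 7.11%), and respiratory chain and ATP synthase genes 2 of 93 (2.15%, 0.262 to 7.55%).

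Chromatin modifier and remodeller genes had 8 of 112 (7.14%, 3.13 to 13.6%). A split by CpG is void here too, as 5 of the 8 marked genes have no window. The methyltransferase gene Ash1l led them with 5.68, in a peak shared with Dap3, followed by the demethylase gene Kdm3b (4.99), the remodeller gene Chd1 (4.40) and the DNA methyltransferase gene Dnmt3a (4.40, at its 3′ end). Histone genes had 4 of 80 (1.38 to 12.3%) at 2 peaks. Protein phosphatase subunit genes had 5 of 88 (5.68%, 1.87 to 12.8%), the highest at 4.25 in Ppp1r2. MAP kinase cascade genes had 4 of 75 (5.33%, 1.47 to 13.1%), led by the phosphatase genes Dusp1 (5.85) and Dusp18 (5.63).

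Ubiquitin enzyme genes had 13 of 349 (3.72%, 1.998 to 6.29%), led by Fbxw7 (5.99), Rnf111 (5.63) and Otud4 (5.12). Zinc finger factor genes had 14 of 455 (3.08%, 1.69 to 5.11%), with Zfp788 (8.00) and Zfp12 (6.84) first. Solute carriers had 8 of 362 (2.21%), small GTPase regulators 4 of 171 (2.34%), cell cycle genes 3 of 122 (2.46%) and RNA polymerase and general factor genes 2 of 109 (1.83%), all close to the 2.28% of all genes. Olfactory receptor genes, which are silent in T cells, had 0 of 1104 (up to 0.334%), and none of the 938 with a promoter window was CpG-rich. In all, 110 of the 471 marked genes were in any list, and 24 carried predicted or clone names.

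**Figure D5:**
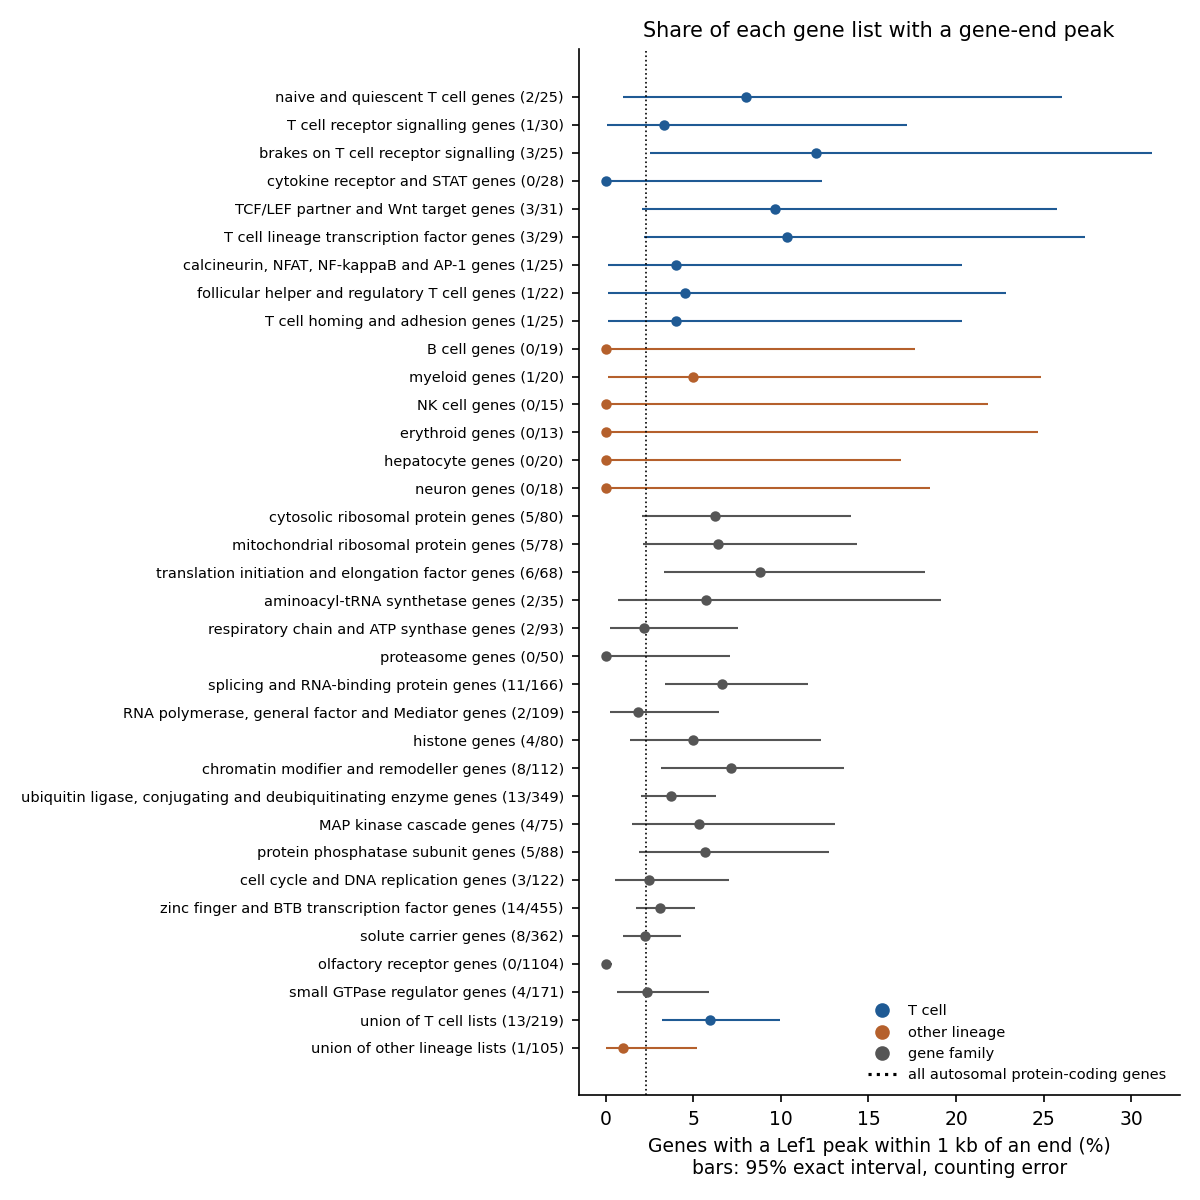
Percent of the genes in each list that have a Lef1 peak within 1 kb of an end, with 95% exact intervals for counting error and, in brackets, the marked and measured members. The dotted line is the 2.28% of all autosomal protein-coding genes, and olfactory receptor genes lie at 0 of 1104 while translation factor genes reach 8.82%.

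Gene-end peaks were found on every autosome, from 11 to 34 a chromosome. The share of genes marked ran from 1.48% on chromosome 7 to 2.94% on chromosome 4.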

How the data were processed

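Sorted CD4+ T cells gave 1 wild-type and 1 Lef1-deficient ChIP-seq library, amplified over 18 to 21 PCR cycles per the labels' protocols. The authors deposited 1 list of peaks with positions and a score, the −log10 of the p-value per the file headers, called on the wild-type library against the Lef1-deficient one. FastQC, Bowtie2 2.3.4.1, MACS2 2.1.1 and mm10 are named in the submitters' processing notes, without parameters or later filters, which were not stated in what was used here. Read depth is unknown. Starts were raised by 1 on the assumption of BED coordinates.

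Gene ends came from an NCBI RefSeq table and strands and promoter sequences from RefSeq windows, both of GRCm38.p6. Windows of opposite strands that overlap gave the same sequence in 710 of 710 cases. No gene on chromosome 18 had a window. Shares have exact Clopper-Pearson intervals and medians exact order-statistic intervals (95%, SciPy 1.17.1), which cover counting error only. No p-value was computed, since nothing was replicated. The script that matches peaks to genes was tested on simulated data with planted peaks. Alternatives were other distances (500 bp, 2.5 kb), the peak centre, all genes, higher scores, X and Y, merged neighbours and an overlap of at least 50 bp. Named were the 12 highest scores with ties, the 8 widest peaks, the 8 highest shared peaks, genes with peaks at both ends, all marked T cell genes, and up to 4 members of other lists. Peaks just past those ranks (Elk4, Nr1d1, Cacybp, Snrpe), leading 3′ end peaks, neighbouring pairs and noncoding genes were named after their values were seen. Some items these rules name are not reported here. The members and lists were chosen with earlier results of these data known.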

Additional observations from a re-analysis of the deposited data

How the results depend on the processing

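Within 500 bp the share of peaks at starts only was 93.1%, and of 384 marked genes 0 were in the lists of other lineages. Within 2.5 kb the starts held 79.3%, shared sites 21.6%, and 24 of 649 marked genes were T cell genes. With ends of every annotated gene, shared sites made up 26.5%. Scores above 4.40 alone left 160 gene-end peaks with a median width of 102 bp at 186 genes, 5 of them T cell genes and 0 of other lineages, and TCF/LEF words in 38.7% of windows. Fewer peaks make smaller counts by construction. Merging neighbours gave a median width of 96 bp. Of 291 values recomputed under single alternatives, 249 stayed within 1.5 times the count or within the interval of the main value, and 42 moved further. No paired analysis was possible because nothing was replicated: 1 peak list stands for both libraries, so no replicate could be left out. Peak starts taken as given, without raising them by 1, changed no count of peaks or genes. That setting, the bound of 6 on scores, the CpG-rich windows and the background without chemosensory genes were chosen after seeing the data. Depth limits every absence: genes lacking a peak are only those not marked in the deposited list.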

Other observations

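Noncoding genes also lay beside some gene-end peaks. Of the 432, 60 were within 1 kb of an end of a long noncoding RNA gene (13.9%, 95% exact interval 10.8 to 17.5%), against 67 of the other 1586 autosomal peaks (4.22%, 3.29 to 5.33%). The difference was not tested, and how often ends of coding genes have such a gene in reach was not counted. The peak of 5.53 at Grcc10 covered an end of Rnu7, the U7 RNA gene of histone mRNA processing (chromosome 6, 124741159 to 124741422). Transfer RNA genes lay within 1 kb of 3 gene-end peaks (0.694%, 0.143 to 2.02%), at Ppp6r3 (20 bp), at Elf1 and Wbp4 (147 bp) and at Plekhg2 (478 bp). Among the other 1586 peaks it was 7 (0.441%, 0.178 to 0.907%), so the intervals overlap.

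A further 32 autosomal peaks that were not near a gene end by the distance rule overlapped the promoter window of another annotated start of a coding gene.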
